A study of Mus musculus with 87 samples.

Results

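RNA was compared between mouse embryonic stem (ES) cells lacking Jarid2 and Aebp2 together and wild-type (WT) ES cells, 3 libraries of each. These 6 libraries are the RNA samples labelled Jarid2 + Aebp2 KO and WT. They belong to 24 RNA libraries, 3 for each of 8 genotypes, in a series of 87 samples. The other RNA genotypes used were Pcl1-3 + Jarid2 + Aebp2 KO, Pcl1-3 + Jarid2 + Aebp2 + Epop KO, Pcl1-3 + Jarid2 KO, Pcl1-3 + Epop KO, Pcl1-3 KO and Suz12 KO. All cells were cultured on gelatin with 2i, a medium whose inhibitors hold ES cells in the naive state, and no group carried a further agent or transgene by its labels. The labels give the strain as 129B6F5 for Jarid2 + Aebp2 KO and 129B6F1 for WT, and the last digit of this entry changes with every genotype. As labelled, strain and genotype therefore cannot be told apart. The labels do not say how the knockouts were made, whether a genotype is 1 clone, or whether its libraries came from separate cultures, so the p-values rest on the spread between libraries alone, and that spread may be technical.

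Polycomb repressive complex 2 (PRC2) methylates lysine 27 of histone H3 and keeps many developmental genes silent in ES cells. SUZ12 is part of its core. The accessory proteins define 2 forms of the complex. PRC2.1 carries a Polycomb-like protein (PCL1, PCL2 or PCL3; Pcl1-3 KO cells lack them all) and can carry EPOP. PRC2.2 carries JARID2 and AEBP2. JARID2 belongs to the Jumonji family without being an active demethylase; it is itself methylated by PRC2, which stimulates the enzyme, and it helps to bring the complex to chromatin carrying H2A ubiquitin. AEBP2 is a zinc finger protein that stabilises the complex and contacts the ubiquitinated nucleosome. By its label, the Jarid2 + Aebp2 KO lacks the genes for both PRC2.2 proteins named here and keeps those of the PRC2.1 side; protein levels were not analysed here.

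The deposited values were whole-number read counts for 55450 Ensembl gene IDs, and 30141 of them had no count in any of the 6 libraries. Totals of these libraries ran from 10148155 to 16477779 counts, against up to 28442061 over all RNA libraries. As counts relative to library size (CPM, the usual per-million scale), and before any further scaling, 12392 ± 102 IDs reached 1 CPM in Jarid2 + Aebp2 KO, against 12347 ± 59.8 in WT (SD, n = 3 each). The median SD of an ID between libraries was 0.201 in Jarid2 + Aebp2 KO and 0.157 in WT on the log2 CPM scale, within the range of 0.157 to 0.284 over the 8 genotypes. No table used here pairs Ensembl IDs with symbols, so genes are given by ID, the RNA of Jarid2 and Aebp2 could not be looked up by name, and ES cell markers, markers of other cell types, gene families and pathways were not analysed here.

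The labels could be checked only by searching for IDs that follow them. Exactly 1 of the 14650 IDs tested was lower, without overlap and by over 4-fold, in the 9 libraries labelled as lacking Aebp2 than in the 15 others. This was ENSMUSG00000030232.18, whose highest level was 0.473 CPM in the libraries labelled as lacking Aebp2 and whose lowest was 70.5 CPM in the others. For the 12 libraries labelled as lacking Jarid2, 2 IDs met the same rule. One was barely present, at 0.180 CPM in WT, and did not pass the test in Jarid2 + Aebp2 KO (adjusted p = 0.178, edgeR quasi-likelihood test with Benjamini-Hochberg adjustment). The other was present at 11.3 ± 0.628 CPM in Jarid2 + Aebp2 KO and 228 ± 23.8 CPM in WT (SD, n = 3 each), a log2 fold change of -4.34 (adjusted p = 5.26e-12). Which genes these IDs stand for was not looked up, so the search shows IDs that sort the libraries as labelled and does not show the loss of either gene by name.

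RNA changed in both directions in Jarid2 + Aebp2 KO cells, with slightly more IDs higher than lower. Of 14650 IDs tested, 331 rose (2.26%) and 312 fell (2.13%), together 643 (4.39%), at an adjusted p under 0.05 in edgeR's quasi-likelihood test over the 24 libraries. The median log2 fold change was 0.77 over the risen IDs and -0.83 over the fallen IDs, against 0.0059 over all IDs tested. More than 2-fold changes were found in 108 risen IDs (0.737%) and 132 fallen IDs (0.901%), and more than 4-fold changes in 14 risen and 69 fallen IDs. Among called IDs that had passed the filter on low counts, the changes beyond 4-fold were thus mostly losses of RNA. The split beyond 4-fold was not made without that filter. Of all 14650 IDs tested, called or not, 214 had a fitted change beyond 4-fold in either direction. In bulk RNA, fewer cells of a type and less RNA per cell cannot be told apart.

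Among the tested IDs with the least RNA, more fell than rose. All of these had passed the filter on low counts. With no such filter, 847 IDs rose and 597 fell of 31394 tested, over all levels. The split by level was not made without the filter. Among 1907 IDs with a mean under 1 CPM over the 24 libraries, 4 rose (0.210%) and 33 fell (1.73%), with median log2 fold changes of 1.73 and -2.54. Among 3768 IDs of 1 to 10 CPM, 92 rose (2.44%) and 98 fell (2.60%), with medians of 1.36 and -1.55. IDs of 10 to 50 CPM, 4458 in number, held 127 risen (2.85%) and 87 fallen (1.95%), with medians of 0.74 and -0.75. Above 50 CPM, 108 of 4517 rose (2.39%) and 94 fell (2.08%), with medians of 0.53 and -0.47. Above 10 CPM the changes were therefore modest in both directions, and most lay below 2-fold. The change itself and the other knockouts enter this mean, so the IDs were also classed by the mean of the Jarid2 + Aebp2 KO and WT levels alone, a choice made after the values were seen. Under 1 CPM, 9 then rose (0.409%) and 41 fell (1.86%) of 2202 IDs, and from 1 to 10 CPM, 97 rose (2.72%) and 89 fell (2.50%) of 3566. Full switches were rare. Only 4 of the 55450 IDs were gained, with a mean of at least 2 CPM in Jarid2 + Aebp2 KO, under 0.5 CPM in WT and no overlap between libraries, and 9 were lost by the mirrored rule.

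**Figure D1:**
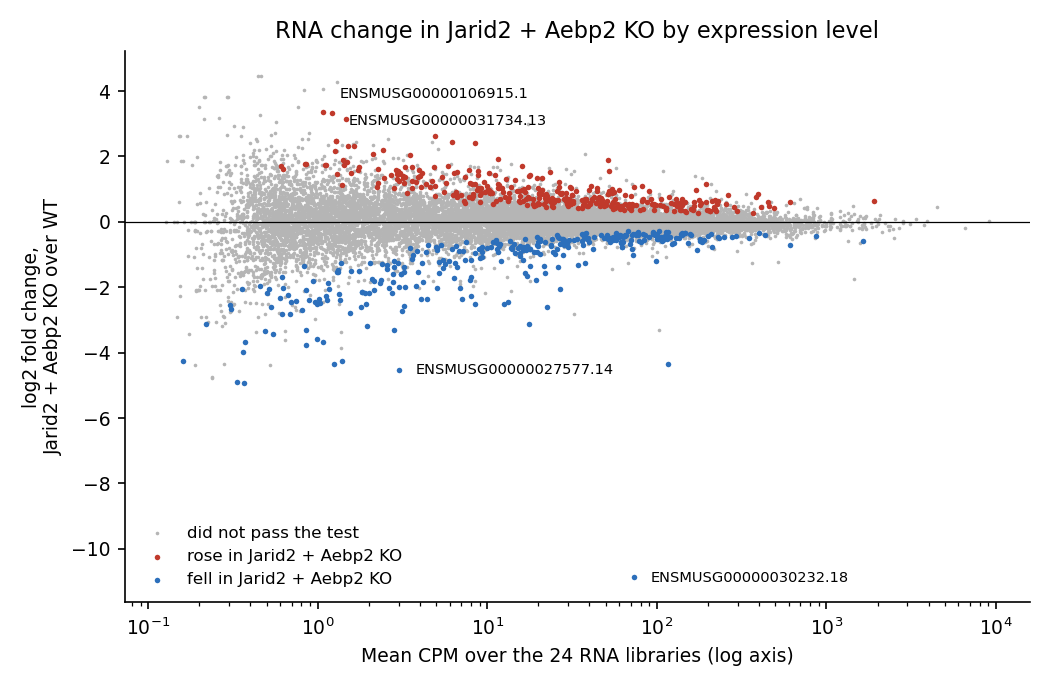
Log2 fold change of Jarid2 + Aebp2 KO over WT (y axis) against mean CPM over the 24 RNA libraries (x axis, log scale) for the 14650 IDs tested. Red points rose (331), blue points fell (312) and grey points did not pass the test. The 4 labelled IDs had the highest and lowest fold changes among IDs with at least 1 CPM in one group; the blue points below -4.54 near 0.3 CPM did not reach that level.

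All 643 called IDs had no overlap between the 3 knockout and the 3 WT libraries. This is partly what a call requires: of all 14650 IDs tested, 2345 (16.0%) were higher without overlap in Jarid2 + Aebp2 KO and 2105 (14.4%) were lower without overlap. Library by library, the median distance of the risen IDs from the WT mean was 0.783, 0.578 and 0.901 in the 3 Jarid2 + Aebp2 KO libraries and -0.0899, 0.0270 and 0.0635 in the 3 WT libraries, in log2 CPM. For the fallen IDs the medians were -0.810, -0.733 and -0.979 in Jarid2 + Aebp2 KO and 0.114, -0.0573 and -0.0606 in WT. The second knockout library lay nearest to WT for both sets, and the third lay farthest. These values describe the sets, which were chosen on the same libraries.

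The number of calls leaned heavily on single libraries, named here by their replicate numbers. It was 249 without the first, 822 without the second and 81 without the third Jarid2 + Aebp2 KO library. It was 98 without the first, 277 without the second and 358 without the third WT library. Of the 331 risen IDs, 28 (8.46%) were called in every one of these 6 fits, as were 42 of the 312 fallen IDs (13.5%). The fallen IDs that held had a larger median log2 fold change, -2.24 against -0.83 over all fallen IDs. They also held small changes, with values from -10.87 to -0.48. The risen IDs that held had a median of 0.91 and ran from 0.44 to 2.41. Of the 4 IDs described next, both that fell were among them and neither that rose was. The main fit left the replicate numbers out, so any spread that follows them stayed in its error. The fits with a library left out also had no such block. With the replicate number as a block, 2281 IDs were called, 1243 higher and 1038 lower.

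**Figure D2:**
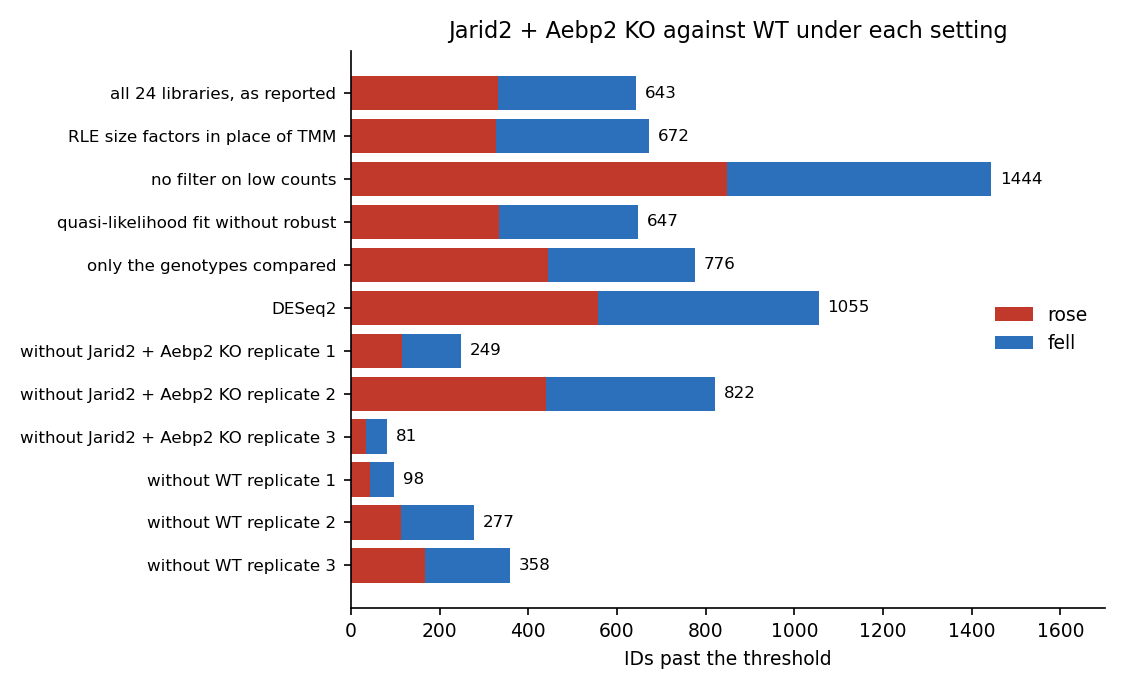
Number of IDs past the threshold in Jarid2 + Aebp2 KO against WT (x axis) under each of 12 settings (y axis). Red is the number that rose and blue the number that fell; the figure at the end of each bar is their sum. Among the settings drawn it runs from 81 without the third Jarid2 + Aebp2 KO library to 1444 with no filter on low counts. A fit with replicate numbers as a block, which gave 2281 IDs, is not drawn.

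Individual IDs are described where the mean reached 1 CPM in at least one of Jarid2 + Aebp2 KO and WT. Of these, ENSMUSG00000030232.18 fell most. It was at 0, 0.124 and 0 CPM in the 3 Jarid2 + Aebp2 KO libraries and at 110, 111 and 94.0 CPM in the 3 WT libraries. That is 2 counts in all in the knockout libraries and 3536 in the WT libraries. The WT level was 2203 times the knockout level, with an exact 95% interval of 609 to 18198 that covers counting error only. The fitted log2 fold change was -10.87 ± 0.39 (SE; adjusted p = 5.58e-14), and the call held without any 1 library, with adjusted p up to 1.41e-11. The ID was likewise near 0 in both other genotypes labelled as lacking Aebp2, at 0.171 ± 0.0762 CPM in Pcl1-3 + Jarid2 + Aebp2 KO and 0.213 ± 0.240 CPM in Pcl1-3 + Jarid2 + Aebp2 + Epop KO. It was at 99.5 ± 9.48 CPM in Pcl1-3 + Epop KO, 90.4 ± 19.2 CPM in Pcl1-3 KO and 107 ± 8.76 CPM in Suz12 KO (SD, n = 3 each). In Pcl1-3 + Jarid2 KO it averaged 181 ± 31.9 CPM, against 105 ± 9.46 CPM in WT (log2 fold change 0.79, adjusted p = 0.00479). Loss of Jarid2 and Aebp2 gave log2 fold changes of -8.94 over Pcl1-3 KO (adjusted p = 1.71e-13) and -8.74 over Pcl1-3 + Epop KO (adjusted p = 1.95e-13), all by edgeR's quasi-likelihood test.

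ENSMUSG00000027577.14 came next among IDs reaching 1 CPM and had another pattern; some called IDs below that level had lower fold changes. Its level was 0.365, 0.309 and 0.159 CPM in the Jarid2 + Aebp2 KO libraries, 12 counts in all, and 10.03, 6.35 and 3.86 CPM in the WT libraries. The groups did not overlap, although WT itself spread over more than 2-fold. The log2 fold change was -4.53 ± 0.42 (SE; adjusted p = 1.93e-06, edgeR), and it held without any 1 library, with adjusted p up to 8.01e-05. All other accessory knockouts averaged under 1 CPM, with 0.357 in Pcl1-3 KO, 0.287 in Pcl1-3 + Epop KO, 0.668 in Pcl1-3 + Jarid2 KO, 0.0995 in Pcl1-3 + Jarid2 + Aebp2 KO and 0.0299 in Pcl1-3 + Jarid2 + Aebp2 + Epop KO. Suz12 KO went the other way, with 15.6 ± 2.22 CPM, against 6.75 ± 3.11 CPM in WT (log2 fold change 1.22, adjusted p = 0.00315). In direct comparison Jarid2 + Aebp2 KO was lower than Suz12 KO by a log2 fold change of -5.75 (adjusted p = 2.42e-09). Against Pcl1-3 + Epop KO it differed by -0.05 ± 0.60 (SE; adjusted p = 0.987), which does not show that the levels are equal.

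The 2 IDs that rose most among those reaching 1 CPM were close to the limit of detection in WT. ENSMUSG00000106915.1 was at 1.75, 0.681 and 2.38 CPM in Jarid2 + Aebp2 KO and at 0.195, 0.0992 and 0.146 CPM in WT, where it had 5 counts in all. The knockout level was 10.4 times the WT level, with an exact 95% counting interval of 4.25 to 33.2. The fitted log2 fold change was 3.35 ± 0.88 (SE; adjusted p = 0.0341, edgeR). Without the second Jarid2 + Aebp2 KO library it kept its call (adjusted p = 0.0193); without any other of the 6 libraries the adjusted p lay between 0.0823 and 0.165. Its level in the remaining genotypes ran from 0.375 CPM in Suz12 KO to 1.65 CPM in Pcl1-3 KO.

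ENSMUSG00000031734.13 had 1.68, 1.49 and 3.25 CPM in Jarid2 + Aebp2 KO and 0, 0.198 and 0.364 CPM in WT, where it had 7 counts in all. The ratio was 10.1, with an exact 95% counting interval of 4.70 to 25.8, and the log2 fold change was 3.33 ± 0.82 (SE; adjusted p = 0.0248, edgeR). The call was lost without the first WT library (adjusted p = 0.131), the second WT library (0.0743) or the third Jarid2 + Aebp2 KO library (0.139). Suz12 KO had a like level of 2.17 ± 1.51 CPM (SD, n = 3), and every other knockout was between 0.541 and 1.47 CPM.

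**Figure D3:**
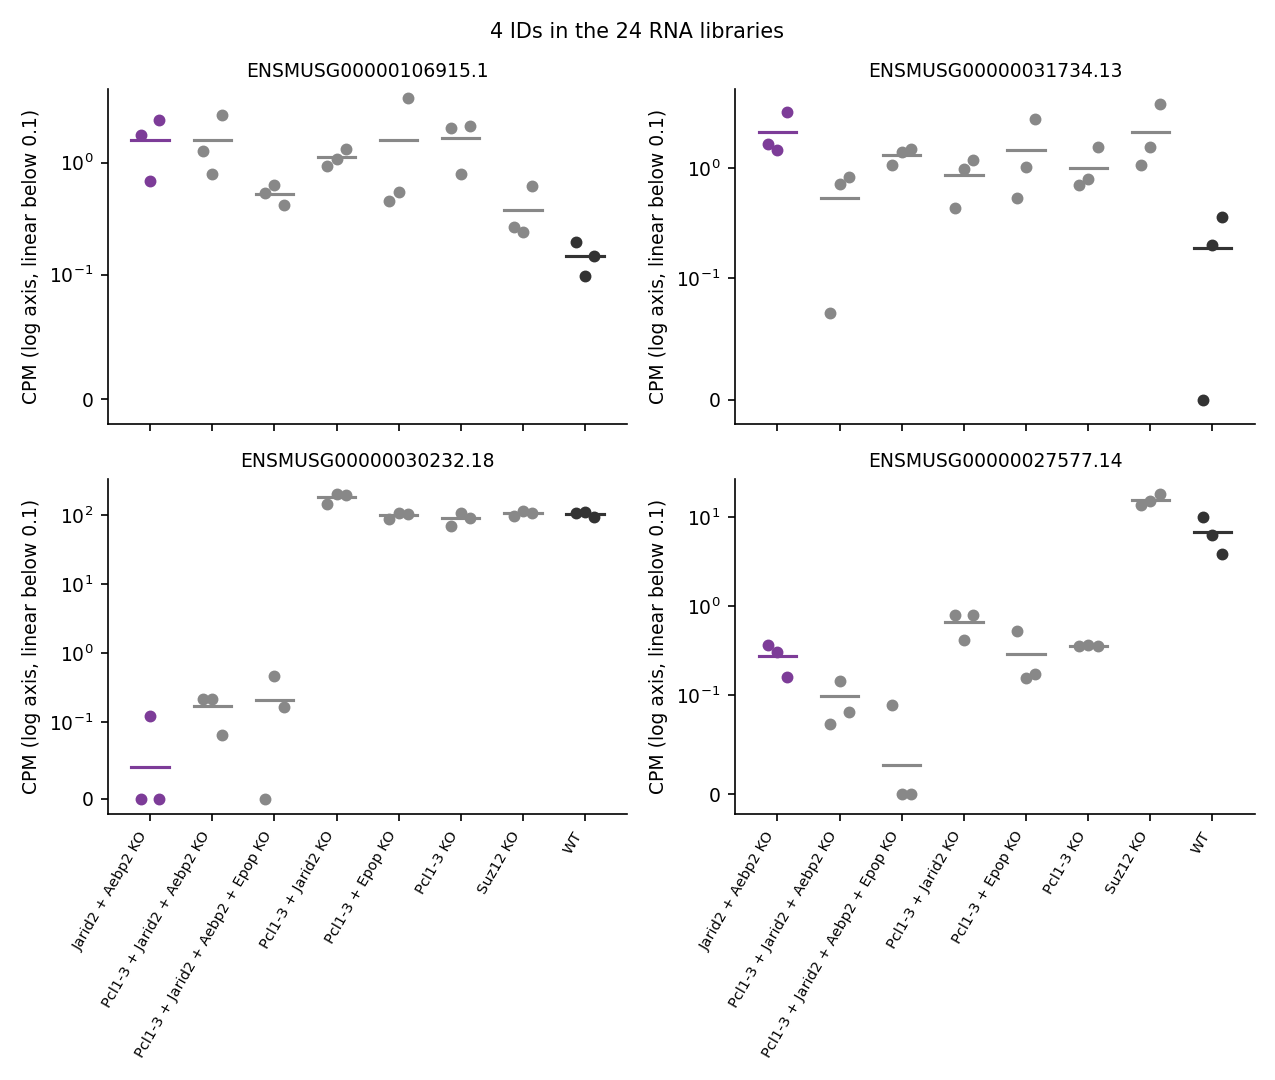
CPM of the 4 IDs (y axis, log scale above 0.1 CPM and linear below) in each of the 24 RNA libraries, by genotype (x axis). Points are libraries and lines the mean of 3. The 3 genotypes labelled as lacking Aebp2 lie at or below 0.473 CPM for ENSMUSG00000030232.18, and WT and Suz12 KO lie above all other genotypes for ENSMUSG00000027577.14.

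The series removes Jarid2 and Aebp2 in 2 further settings, from cells already lacking Pcl1-3 and from cells already lacking Pcl1-3 and Epop. Neither of these pairs shares a library with Jarid2 + Aebp2 KO and WT. Their fold changes thus give a separate reading of the IDs called above. Their calls are less separate, because the spread of each ID was fitted over all 24 libraries. Over Pcl1-3 KO, the combined loss changed 789 of 14650 IDs (5.39%), of which 436 were higher (2.98%) and 353 lower (2.41%). Over Pcl1-3 + Epop KO it changed 3906 (26.7%), with 1899 higher (13.0%) and 2007 lower (13.7%). The count over Pcl1-3 KO was 354 without the first, 932 without the second and 349 without the third Pcl1-3 KO library. It was 619 without the first, 422 without the second and 467 without the third Pcl1-3 + Jarid2 + Aebp2 KO library. With only the genotypes compared in the fit it was 256 over Pcl1-3 KO and 1259 over Pcl1-3 + Epop KO.

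As sets, the IDs called in Jarid2 + Aebp2 KO had median changes close to 0 in cells that lacked Pcl1-3. Of the 331 risen IDs, 27 were also higher over Pcl1-3 KO (8.16%) and 12 were lower (3.63%). Of the 312 fallen IDs, 26 were also lower (8.33%) and 22 were higher (7.05%). Each of these shares exceeded that of all IDs tested, in the opposite direction as well as in the same one. The median log2 fold change over Pcl1-3 KO was -0.05 for the risen and 0.09 for the fallen IDs, and 42.3% of the risen and 58.0% of the fallen IDs had positive values, against 49.2% of all IDs tested.

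In cells that also lacked Epop the medians were again close to 0, and here calls in the opposite direction outnumbered those in the same one. Of the risen IDs, 64 were higher (19.3%) and 71 lower (21.5%) over Pcl1-3 + Epop KO, with a median log2 fold change of -0.09. Of the fallen IDs, 50 were lower (16.03%) and 71 higher (22.8%), with a median of 0.11. Over all IDs tested the shares were 13.0% higher and 13.7% lower, so the fallen IDs were lower again at little more than the share of all IDs. Positive values were found for 41.7% of the risen and 56.4% of the fallen IDs, against 48.7% of all IDs tested. In all 3 settings, 23 of the 331 risen IDs were higher (6.95%) and 17 of the 312 fallen IDs were lower (5.45%), against 2.34% and 1.66% of all IDs tested that were higher or lower in both Pcl1-3 settings. ENSMUSG00000030232.18 is one of the 17, and the search by label that found it already required low levels in both Pcl1-3 settings. The same holds for the ID at 228 CPM in WT that followed the Jarid2 label. It had at most 11.7 CPM in every library labelled as lacking Jarid2 and at least 139 CPM in all others. The share of 5.45% is to that extent not a separate reading.

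The medians by library showed how small these shifts were beside the spread. For the risen IDs they were -0.140, -0.0428 and 0.0815 in the 3 Pcl1-3 + Jarid2 + Aebp2 KO libraries and 0.0581, -0.153 and 0.101 in the Pcl1-3 KO libraries, each relative to the Pcl1-3 KO mean. For the fallen IDs they were 0.149, 0.0852 and 0.00255 in Pcl1-3 + Jarid2 + Aebp2 KO and -0.0437, 0.104 and -0.0533 in Pcl1-3 KO. The libraries of the genotypes overlapped for both sets. With Epop also lost, the risen IDs stood at -0.0333, -0.0718 and -0.110 in Pcl1-3 + Jarid2 + Aebp2 + Epop KO, inside the range of -0.190 to 0.254 in Pcl1-3 + Epop KO. The fallen IDs stood at 0.109, 0.129 and 0.119, against -0.152 to 0.117 in Pcl1-3 + Epop KO.

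**Figure D4:**
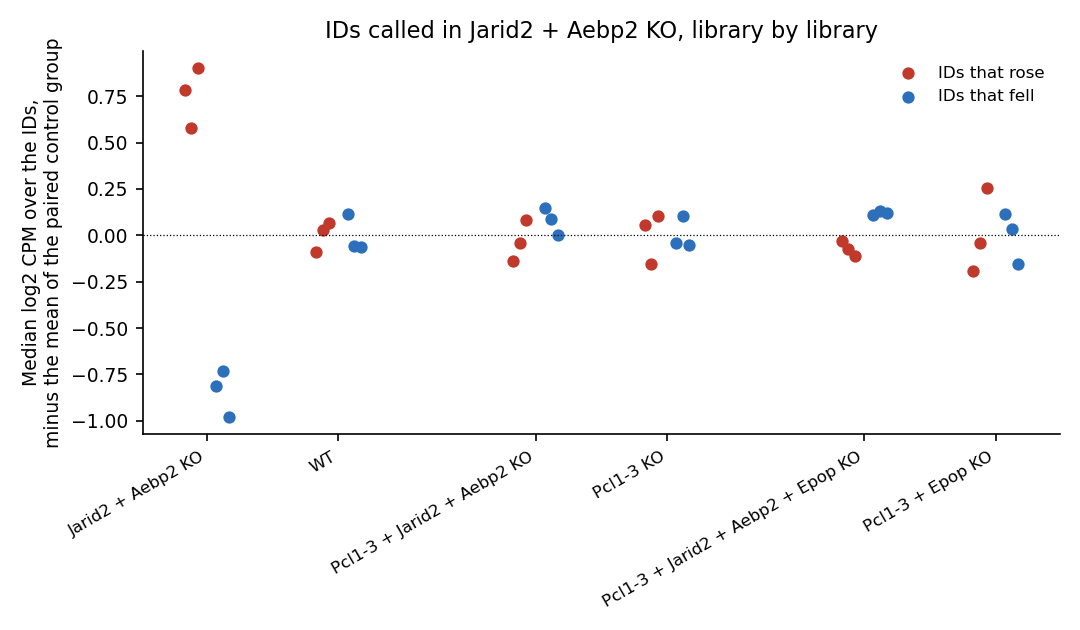
Median log2 CPM over the IDs that rose (red, n = 331) and fell (blue, n = 312) in Jarid2 + Aebp2 KO against WT, for each library of 6 genotypes (x axis), minus the mean of WT, Pcl1-3 KO or Pcl1-3 + Epop KO (y axis). The Jarid2 + Aebp2 KO libraries lie at 0.578 to 0.901 and -0.979 to -0.733, by the choice of the IDs, and the libraries of both Pcl1-3 settings lie between -0.190 and 0.254.

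The side of 50% on which these shares fell depended on single libraries. Chosen again without a library, the risen IDs were positive over Pcl1-3 KO in 59.5% of cases without the first WT library, 53.04% without the first and 51.5% without the third Jarid2 + Aebp2 KO library, and 50.8% without the third Pcl1-3 KO library. Over Pcl1-3 + Epop KO the share was 61.9% and 51.3% without the first or the second WT library, 56.5% and 54.5% without the first or the third Jarid2 + Aebp2 KO library, and 54.2% without the third Pcl1-3 + Epop KO library. For the fallen IDs it was 47.0% in both settings without the first Jarid2 + Aebp2 KO library. Some of these choices left few IDs, with 33 risen IDs without the third Jarid2 + Aebp2 KO library and 42 without the first WT library. Of the 28 risen IDs that held in all 6 fits, 5 were higher (17.9%) and 0 lower over Pcl1-3 KO, and of the 42 fallen IDs that held, 5 were lower (11.9%) and 1 higher (2.38%). The shares of all IDs tested there were 2.98% higher and 2.41% lower. Over Pcl1-3 + Epop KO, 10 of the 28 were higher (35.7%) and 6 lower (21.4%), and 4 of the 42 were lower (9.52%) and 12 higher (28.6%), against 13.0% higher and 13.7% lower of all IDs tested. With the IDs found by label counted in, calls in the same direction outnumbered those in the opposite one over Pcl1-3 KO in both sets. Over Pcl1-3 + Epop KO they did so in the risen set only. All of this rests on small counts. How the fallen set reads without the IDs found by label was not counted. ENSMUSG00000030232.18 is one of the 5 and of the 4 fallen IDs that were lower again. The ID at 228 CPM in WT that followed the Jarid2 label also held in all 6 fits. It reached at most 11.7 CPM in the libraries labelled as lacking Jarid2 and at least 139 CPM in the others. Both were found by a rule that required low levels in every library labelled as lacking the subunit, the Pcl1-3 settings included. Their falls in those settings therefore add no separate reading.

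**Figure D5:**
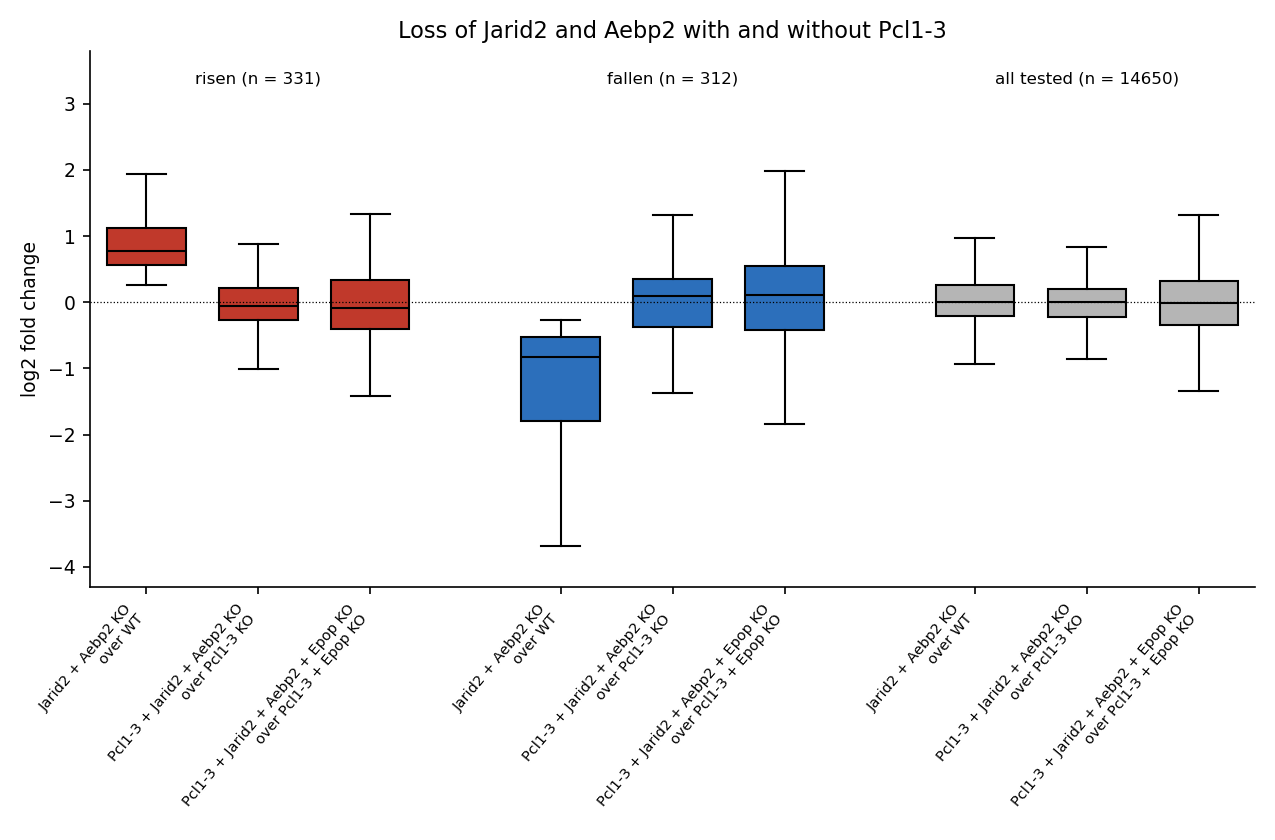
Log2 fold change (y axis) on combined loss of Jarid2 and Aebp2 over WT, over Pcl1-3 KO and over Pcl1-3 + Epop KO (x axis), for the 331 IDs that rose, the 312 that fell and all 14650 tested. Boxes hold the middle part from the lower to the upper quartile, lines in them are medians, and IDs beyond the whiskers are not drawn. Medians over WT were 0.77 and -0.83 by the choice of the IDs; those over both other settings lay between -0.09 and 0.11.

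Read from the other side, 586 IDs changed in the same direction on loss of Jarid2 and Aebp2 in both Pcl1-3 settings, 343 upward and 243 downward, and 17 changed in opposite directions. The 343 IDs had median log2 fold changes of 0.83 over Pcl1-3 KO and 1.01 over Pcl1-3 + Epop KO, values that chose them, and of -0.02 in Jarid2 + Aebp2 KO over WT. In the last comparison 23 of them rose (6.71%) and 16 fell (4.66%). For the 243 IDs the medians were -0.85 and -0.98 in the Pcl1-3 settings and 0.04 in Jarid2 + Aebp2 KO over WT, where 7 rose (2.88%) and 17 fell (6.996%). Of all IDs tested, 2.26% rose and 2.13% fell in that comparison. Both shares of the 343 IDs lay above these, while the share that rose among the 243 lay near its value. Across the 14650 IDs, Pearson's r between log2 fold changes was 0.530 for both Pcl1-3 settings. It was -0.032 between Jarid2 + Aebp2 KO over WT and the loss over Pcl1-3 KO, and -0.023 with the loss over Pcl1-3 + Epop KO. Spearman's rho was 0.559, -0.122 and -0.119 in the same order. For the 8975 IDs with a mean of at least 10 CPM over the 24 libraries, r was 0.695, 0.013 and -0.068. There rho was 0.671, -0.202 and -0.229. ENSMUSG00000030232.18, which fell in all 3 comparisons, was not taken out of the values over the 14650 IDs. These are descriptions across IDs, which are not independent and share each library's depth. Over the 14650 IDs with 1 library left out, r between both Pcl1-3 settings lay between 0.449 and 0.534. Both r values with Jarid2 + Aebp2 KO over WT then lay between -0.138 and 0.121.

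Whether the effect of losing Jarid2 and Aebp2 differs with and without Pcl1-3 was tested directly as the difference of effects, Jarid2 + Aebp2 KO over WT minus Pcl1-3 + Jarid2 + Aebp2 KO over Pcl1-3 KO. It passed the threshold for 1078 IDs (7.36%), 535 with the higher effect in the presence of Pcl1-3 (3.65%) and 543 with the lower (3.71%), and by more than 2-fold for 290 (1.98%) and 273 (1.86%). Of the 1078 IDs, 158 were risen and 162 fallen in Jarid2 + Aebp2 KO over WT, and 400 were called over Pcl1-3 KO. Another 398 (36.9%) were called in neither comparison. The median difference was 0.78 over the risen and -0.89 over the fallen IDs, close to their medians of 0.77 and -0.83 over WT. The difference contains the 6 libraries that chose these IDs, so it is no separate reading of them. Of the 4 IDs described above, ENSMUSG00000031734.13 passed: it was at 2.14 ± 0.970 CPM in Jarid2 + Aebp2 KO and 0.187 ± 0.182 CPM in WT, and at 0.541 ± 0.410 CPM in Pcl1-3 + Jarid2 + Aebp2 KO and 1.02 ± 0.465 CPM in Pcl1-3 KO (SD, n = 3 each). The log2 difference of effects was 4.34 ± 1.09 (SE; adjusted p = 0.0203, edgeR), and it was lost without the first WT library (adjusted p = 0.0590), the third Pcl1-3 KO library (0.0877) or the third Jarid2 + Aebp2 KO library (0.0588). The count of 1078 became, with libraries left out one at a time, 494 or 718 without the first or the second WT library, 564 or 495 without the first or the third Jarid2 + Aebp2 KO library, and 640 or 639 without the first or the second Pcl1-3 + Jarid2 + Aebp2 KO library. It became 533 without the first, 1621 without the second and 451 without the third Pcl1-3 KO library.

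The remaining knockouts were set beside Jarid2 + Aebp2 KO for the same IDs. Against WT, the 331 risen IDs had median log2 fold changes of 0.77 in Jarid2 + Aebp2 KO, 0.48 in Pcl1-3 KO, 0.46 in Pcl1-3 + Epop KO, 0.53 in Pcl1-3 + Jarid2 KO, 0.47 in Pcl1-3 + Jarid2 + Aebp2 KO, 0.37 in Pcl1-3 + Jarid2 + Aebp2 + Epop KO and 0.11 in Suz12 KO. The 312 fallen IDs had medians of -0.83 in Jarid2 + Aebp2 KO, -0.57 in Pcl1-3 KO, -0.53 in Pcl1-3 + Epop KO, -0.49 in Pcl1-3 + Jarid2 KO, -0.44 in Pcl1-3 + Jarid2 + Aebp2 KO, -0.38 in Pcl1-3 + Jarid2 + Aebp2 + Epop KO and 0.03 in Suz12 KO. All these values share the 3 WT libraries on which the IDs were chosen, so no likeness between knockouts is drawn from them.

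Direct tests between knockouts do not use the WT levels, although the WT libraries enter the shared filter, scaling and spread of the fit. Jarid2 + Aebp2 KO differed from Pcl1-3 + Epop KO, the loss of PRC2.1 accessory proteins, in 624 IDs (4.26%), of which 340 were higher (2.32%) and 284 lower (1.94%). More than 2-fold differences were found for 184 higher (1.26%) and 108 lower IDs (0.737%). This count fell to 57, with 45 higher and 12 lower, when only these genotypes were fitted, and to 323 and 401 without the third or the second Jarid2 + Aebp2 KO library and 344 without the second Pcl1-3 + Epop KO library. From Suz12 KO, the loss of the core, Jarid2 + Aebp2 KO differed in 6788 IDs (46.3%), with 3262 higher (22.3%) and 3526 lower (24.1%). Beyond 2-fold, 979 were higher (6.68%) and 2117 lower (14.5%), so the large differences were mostly IDs with less RNA in Jarid2 + Aebp2 KO than in Suz12 KO. Leaving out any of the 6 libraries kept this count between 5806 and 6181.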

How the data were processed

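The authors deposited 1 file per RNA library of raw read counts, whole numbers given for each versioned Ensembl ID. Per the submitters' processing notes, STAR, HTSeq and the mm10 build were used, with versions, annotation release and strandedness not given in the sources used here. Overlapping or antisense genes and near-identical copies are therefore uncertain. Per the labels' protocols, total RNA was purified with RNeasy plus and made into libraries with the TruSeq v2 kit.

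The tests used edgeR 4.0.16 under R 4.3.3. The 14650 IDs that passed filterByExpr (minimum count 10, minimum total 15) were scaled by TMM and fitted over 24 libraries in one quasi-likelihood model (glmQLFit with robust = TRUE, then glmQLFTest), each genotype having its own mean. Adjusted p-values are Benjamini-Hochberg values over all IDs tested, with a threshold of 0.05. CPM are TMM-scaled, and log2 CPM used a prior count of 2. Counting intervals are exact at 95% and, like reads without molecular identifiers in general, cover counting error only. Replicates of a genotype differed by more than sampling noise, with chi-square per degree of freedom from 14.6 to 21.3 in Jarid2 + Aebp2 KO and 6.25 to 19.6 in WT.

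The comparison, the lists and the rule for named IDs were chosen with earlier results of these data known. That rule took the highest and lowest 2 log2 fold changes among called IDs whose mean reached 1 CPM in either genotype and whose libraries did not overlap, 330 risen and 297 fallen. The comparisons over Pcl1-3 KO and Pcl1-3 + Epop KO and the search for IDs that follow the labels were added after the files were seen. Alternatives were RLE size factors, DESeq2 1.42.0, no filter, only the genotypes compared, dispersions without robust, a replicate block and each library left out. The deposited peak lists were not used here. The scripts were tested on simulated data.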

Additional observations from a re-analysis of the deposited data

Results flagged for a closer look

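The effect of losing Jarid2 and Aebp2 differed with and without Pcl1-3 for 1078 of 14650 IDs by the direct test of that difference (edgeR quasi-likelihood, adjusted p under 0.05), and from 451 to 1621 IDs passed when 1 of the 12 libraries was left out. Of the 1078 IDs, 398 (36.9%) were called neither in Jarid2 + Aebp2 KO over WT nor in the loss over Pcl1-3 KO. Within this test, ENSMUSG00000031734.13 had a log2 difference of effects of 4.34, with a log2 fold change of 3.33 in Jarid2 + Aebp2 KO over WT and of -1.01 in Pcl1-3 + Jarid2 + Aebp2 KO over Pcl1-3 KO (adjusted p = 0.472). It rests on 88 counts in the Jarid2 + Aebp2 KO libraries and 7 in the WT libraries, and the cause of the difference was not tested.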

How the results depend on the processing

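Under RLE size factors, dispersions without robust and only the genotypes compared, the count of changed IDs in Jarid2 + Aebp2 KO over WT was 672, 647 and 776. It was 1444 (847 higher, 597 lower) with no filter on low counts and 1055 (557 higher, 498 lower) with DESeq2, which kept 328 of the 331 risen and 296 of the 312 fallen IDs. The difference of effects gave 1696 IDs with no filter. With only the genotypes compared, the count was 57 for Jarid2 + Aebp2 KO over Pcl1-3 + Epop KO, 256 for the combined loss over Pcl1-3 KO and 1259 over Pcl1-3 + Epop KO. In all, 26 of 36 counts under the 6 settings other than left-out libraries stayed within a factor of 1.5. Under the same settings, 24 of 24 shares of positive values stayed inside their 95% binomial interval. That interval treats IDs as independent, which they are not, and holds no spread between libraries. It therefore cannot show that the shares are stable, and they moved further with single libraries left out, as given below. Pearson's r across IDs between both Pcl1-3 settings was 0.183 with no filter. The cause of the moves was not tested. ENSMUSG00000106915.1 gave no value with only the genotypes compared, where it did not pass the filter.

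With each library left out in turn, the counts ran from 81 to 822 for Jarid2 + Aebp2 KO over WT, 451 to 1621 for the difference of effects, 323 to 657 over Pcl1-3 + Epop KO and 5806 to 6181 over Suz12 KO. They ran from 349 to 932 for the combined loss over Pcl1-3 KO and 2792 to 4134 over Pcl1-3 + Epop KO. The share of positive values ran from 34.1% to 59.5% (risen) and 47.0% to 68.4% (fallen) over Pcl1-3 KO, and from 34.6% to 61.9% (risen) and 47.0% to 69.5% (fallen) over Pcl1-3 + Epop KO, so both sides of 50% were reached.

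Libraries share replicate numbers across genotypes, and nothing in the labels says that a number marks a shared culture or day. Deviations from the group mean correlated at 0.289, 0.0749 and 0.0979 between same-numbered Jarid2 + Aebp2 KO and WT libraries, and the third knockout library correlated best with the second WT library (0.129), so the numbers were not taken as pairs. Over all 8 genotypes, however, every same-numbered pair of libraries correlated positively, at 0.0315 to 0.710 (median 0.260). Libraries of other numbers correlated at -0.656 to 0.390 (median -0.131). Deviations thus followed the numbers in the data, although the labels do not say what a number marks. The main counts leave this spread in the error. With the replicate number as a block, 2281 IDs changed in Jarid2 + Aebp2 KO over WT, 2745 in the difference of effects, 1318 over Pcl1-3 + Epop KO, and 1920 for the combined loss over Pcl1-3 KO. The first count held all 331 risen and 312 fallen IDs.

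The alternatives for gene lists and for distance to a peak were not run, since IDs could not be joined to symbols or positions. Depth limits the IDs near 1 CPM, where a group has fewer than 100 counts.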
